A study of Chlamydomonas reinhardtii with 31 samples.

Results

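The genes described here are those of the starch synthesis pathway of the green alga Chlamydomonas reinhardtii, chosen by locus from a list of 10. Of these, 9 were found in the table of 17301 genes, and the listed phosphoglucomutase locus PGM1 was not analysed here. The 9 genes were STA6 (Cre03.g188250) and STA1 (Cre13.g567950), STA2 (Cre17.g721500), STA3 (Cre06.g282000) and SSS1 (Cre04.g215150), the branching enzyme genes Cre06.g289850, Cre06.g270100 and Cre10.g444700, and STA11 (Cre03.g181500). RNA sequencing was done on 31 samples of cells grown in light in TAP, a medium with acetate, then washed and moved to the same medium lacking ammonium chloride. The first set of libraries came from the strain labelled wild type, CC-4349, and from the sta6 mutant, CC-4348, each at 0, 0.5, 2, 4, 8, 12, 24 and 48 h without nitrogen. The second set held both strains and 3 strains labelled STA6, here called rescued strains, which were STA6-C2 (CC-4565), STA6-C4 (CC-4566) and STA6-C6 (CC-4567), each at 0.5, 4 and 48 h. Every strain, time and set had 1 sample, and all 31, the 0 h samples included, carry the label minus nitrogen. The labels name no parent of sta6 and no lesion, so strain background and the loss of STA6 cannot be told apart where sta6 is set against CC-4349.

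Starch is built in the chloroplast from ADP-glucose. ADP-glucose pyrophosphorylase makes this sugar nucleotide and is the committed step of the pathway. Starch synthases add its glucose to growing chains, branching enzymes introduce the branch points, and algae without nitrogen are known to store starch. In Chlamydomonas, STA6 encodes the small, catalytic subunit of ADP-glucose pyrophosphorylase and STA1 its large, regulatory subunit, and cells without STA6 are known to make almost no starch. STA2 encodes the granule-bound starch synthase, which makes amylose, while STA3 and SSS1 encode soluble starch synthases. STA11 encodes the D-enzyme, a glucanotransferase that passes short glucan chains from one molecule to another.

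Values were taken as FPKM, which scales reads by gene length and library total, so levels of different genes can be compared. How many reads each library held is not stated in the labels or the table. Column sums ran from 552025 to 889042 FPKM. Each FPKM is a share of the sequenced RNA, so in these bulk samples fewer cells with a transcript and less of it per cell cannot be told apart. Each first-set sample had 2 deposited columns, which were averaged as repeat runs. The worth of 1 read, recovered for low genes, was the same in first-set sta6 and the second set for 99.7% of 718 genes within 0.015 on the log2 scale. Set beside first-set sta6, the CC-4349 columns of that set matched for 29.3% of 699 genes. After removal of the most common ratio, 95% of the log2 ratios of CC-4349 to sta6 lay between -0.05 and 0.84. The worth of 1 read was not measured for the starch genes themselves, so first-set differences between these strains are to be read against that range.

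The targeted gene followed the labels, with STA6 between 0.478 and 2.55 FPKM in every sta6 library and between 98.2 and 845 FPKM in all the others. Over the 15 second-set libraries the order by mean began with STA2 at 389 ± 255 FPKM (SD, n = 15). STA6 followed at 307 ± 199 FPKM in the 12 libraries other than sta6 (SD, n = 12), and in sta6 it was the lowest of the 9 in each library. Next came Cre10.g444700 at 240 ± 61.8 FPKM, STA1 at 171 ± 112 FPKM and STA3 at 97.9 ± 46.0 FPKM (SD, n = 15 each). Neighbours in this upper stretch of the order lay closer together than 1 SD. SSS1 followed at 76.3 ± 30.6 FPKM, STA11 at 40.7 ± 11.8 FPKM, Cre06.g270100 at 26.2 ± 12.2 FPKM and Cre06.g289850 at 18.9 ± 6.02 FPKM (SD, n = 15 each). The steps from SSS1 to STA11 and from STA11 to Cre06.g270100 exceeded 1 SD. This order pools times, and the place of STA2 was 1 or 2 among the 9 genes at 0.5 and 4 h in every strain. At 48 h it was 8 in CC-4349, 4 in sta6 and 5 in each rescued strain. STA2 was the highest of the 9 in 17 of the 31 libraries, Cre10.g444700 in 9, STA6 in 4 and STA1 in 1.

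**Figure D1:**
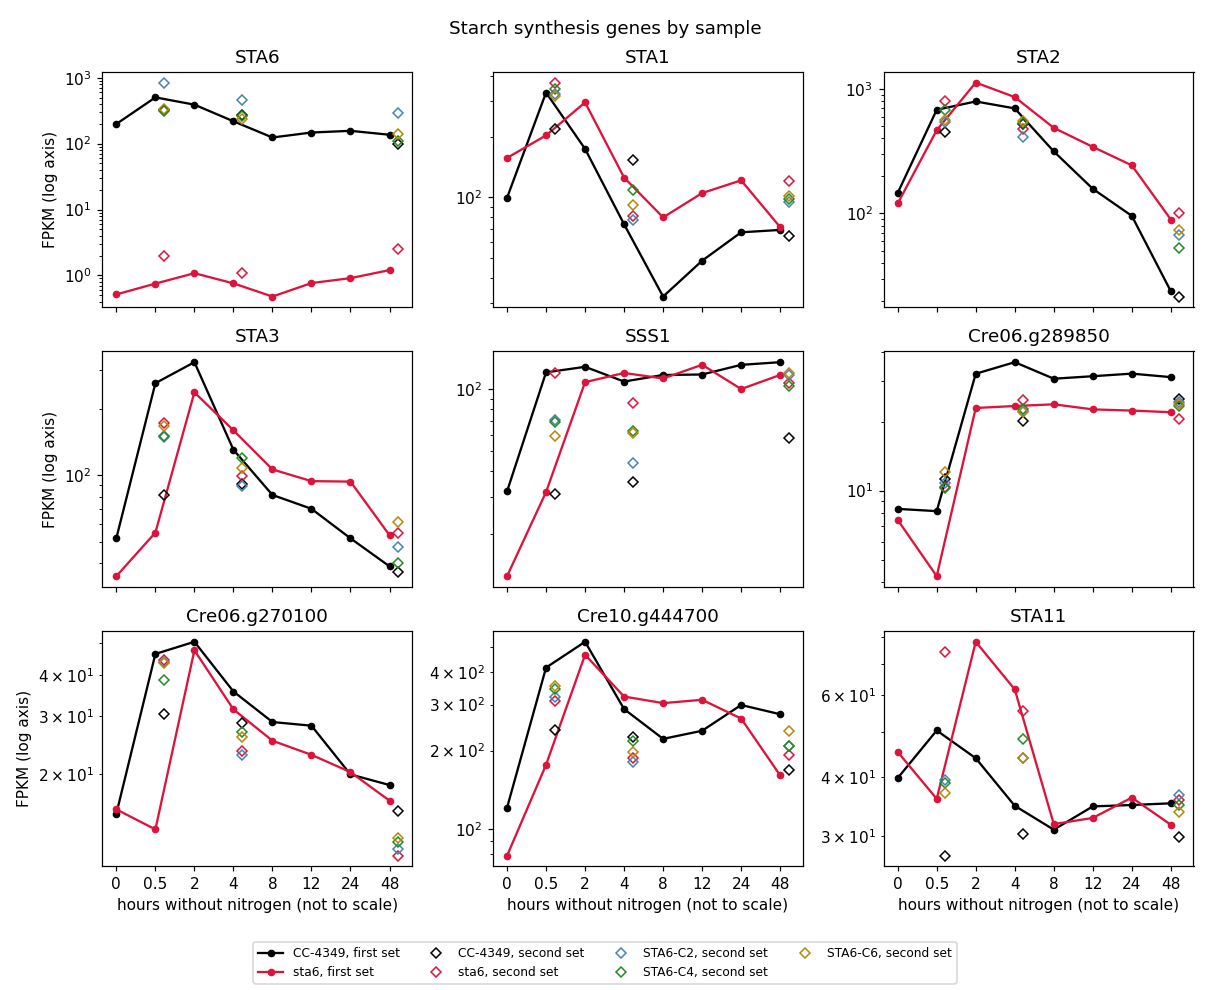
Level of each starch gene in FPKM (log axis) against hours without nitrogen (not to scale), with first-set samples joined by lines and second-set samples as separate symbols, 1 sample per point. STA2 climbs to 793 FPKM in CC-4349 and 1124.5 FPKM in sta6 at 2 h and ends at 23.7 and 89.4 FPKM, while Cre06.g289850 steps up between 0.5 and 2 h and stays up.

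The first comparison asked which starch genes changed after nitrogen was removed. The synthase and branching enzyme genes rose early in both strains. At 2 h, 6 of the 9 genes were higher than at 0 h, and these were all 3 synthase and all 3 branching enzyme genes. The genes of ADP-glucose pyrophosphorylase and STA11 did not pass at 2 h. Among all 15108 genes tested, 39.8% were higher and 14.7% lower at 2 h (limma, adjusted p below 0.05), so a large share of the transcriptome was called higher too. The median of all genes was higher by 0.53 on the log2(FPKM + 1) scale and that of the 9 starch genes by 1.67.

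STA2, the granule-bound synthase gene, had the largest estimate at 2 h. In CC-4349 its level was 146, 680, 793, 698, 315, 158, 95.7 and 23.7 FPKM from 0 to 48 h. The sta6 samples gave 120, 466, 1124.5, 860, 487, 342, 244 and 89.4 FPKM at the same times. Both strains were thus high from 0.5 to 8 h and lowest at 48 h. At 2 h the fitted log2 difference from 0 h was 2.82 ± 0.496 (SE; limma, adjusted p = 0.00148), on the log2(FPKM + 1) scale used for every difference here. By 12 h the difference was 0.81 and did not pass (limma, adjusted p = 0.196). At 48 h STA2 was lower than at 0 h by -1.50 ± 0.496 on the log2 scale (limma, adjusted p = 0.0284), and this call was lost without the CC-4349 sample of 0 h or of 48 h and under quantile normalization.

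STA3, a soluble synthase gene, rose and fell back within the course. It went from 51.9 FPKM at 0 h to 325 FPKM at 2 h and 38.7 FPKM at 48 h in CC-4349. In sta6 it went from 34.9 to 238 and 53.5 FPKM. The strains stood apart at 0.5 h, when CC-4349 had reached 261 FPKM and sta6 55.0 FPKM. The log2 difference at 2 h was 2.68 ± 0.586 (SE; limma, adjusted p = 0.00413), and none of the later times after 4 h passed. The paired sta6 columns differed for this gene, the second column being lower at 8 of 8 times with a median ratio of 0.612, against 1.03 in CC-4349. STA1, STA2 and Cre10.g444700 were likewise lower in the second sta6 column at 8 of 8 times, with median ratios of 0.882, 0.861 and 0.784. Among 6282 genes of at least 10 FPKM on average in sta6, 13.5% were lower in the second column at every time and 26.4% higher. In CC-4349 these shares were 0.475% and 0.964% of 7158 genes.

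SSS1, the other soluble synthase gene, rose and stayed high. CC-4349 had 32.0 FPKM at 0 h and between 109 and 135 FPKM from 0.5 h on. In sta6 it stood at 12.5 FPKM at 0 h, 31.8 FPKM at 0.5 h and between 100.1 and 131 FPKM from 2 h on. The 0 h sample was the lowest of its strain in both. SSS1 passed at every time, with a log2 difference of 2.49 ± 0.452 at 2 h (SE; limma, adjusted p = 0.00173) and 2.59 ± 0.452 at 48 h (SE; limma, adjusted p = 0.00149).

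With these late courses the make-up of synthase transcripts changed. In CC-4349, STA2 made up 63.5% of the summed FPKM of the 3 synthase genes at 0 h and 12.0% at 48 h, while SSS1 went from 13.9% to 68.4%. In sta6, STA2 went from 71.7% to 34.4% and SSS1 from 7.43% to 45.0%. The second set showed the same order at 48 h, where SSS1 held between 40.8% and 52.7% in all 5 strains and STA2 between 18.6% and 38.2%. STA3 held between 9.94% and 31.5% over all 31 libraries.

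**Figure D2:**
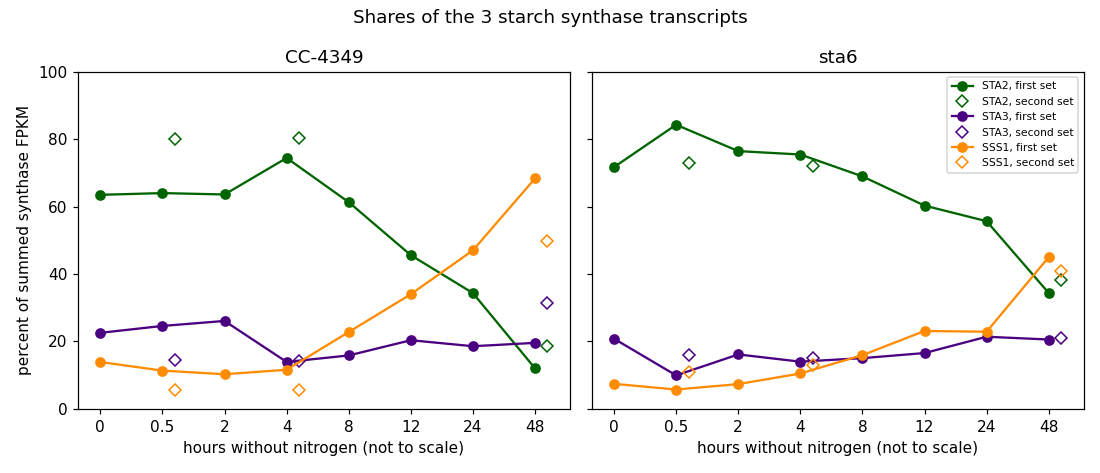
Share of each synthase gene in the summed FPKM of STA2, STA3 and SSS1 (percent) against hours without nitrogen (not to scale) in CC-4349 and sta6, 1 sample per point, lines for the first set and diamonds for the second. STA2 falls from 63.5% to 12.0% in first-set CC-4349 as SSS1 climbs from 13.9% to 68.4%.

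The 3 branching enzyme genes followed 3 different courses. Cre06.g289850 stepped up between 0.5 and 2 h and then held its level. In CC-4349 it read 8.32 FPKM at 0 h, 8.14 FPKM at 0.5 h, and between 30.7 and 36.3 FPKM from 2 h on. In sta6 it read 7.45 and 4.24 FPKM, then between 22.0 and 23.8 FPKM. No sample before 2 h overlapped any later sample of its strain. The log2 difference was 1.67 ± 0.207 at 2 h (SE; limma, adjusted p = 0.000314) and 1.62 ± 0.207 at 48 h (SE; limma, adjusted p = 0.000329).

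Cre06.g270100 peaked and returned. In CC-4349 its levels at 0, 2 and 48 h were 15.1, 50.5 and 18.5 FPKM. The sta6 levels were 15.6, 47.6 and 16.6 FPKM. At 0.5 h it stood at 46.4 FPKM in CC-4349 but at 13.5 FPKM in sta6. It passed at 2 h, with a log2 difference of 1.61 ± 0.370 (SE; limma, adjusted p = 0.00525), and at 4 h, with 1.07 ± 0.370 (SE; limma, adjusted p = 0.0342). The call at 4 h was lost in 6 of 24 alternatives.

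Cre10.g444700 was the most abundant branching enzyme transcript, with between 77.4% and 90.8% of the summed FPKM of the 3 genes in every library. In CC-4349 it went from 121 FPKM at 0 h to 522 FPKM at 2 h and ended at 275 FPKM. In sta6 it went from 78.9 to 466 and then 161 FPKM. It was higher than at 0 h at every later time in both strains. The log2 difference was 2.33 ± 0.381 at 2 h (SE; limma, adjusted p = 0.00107) and 1.10 ± 0.381 at 48 h (SE; limma, adjusted p = 0.0340), the latter lost in 6 of 24 alternatives. With library medians made equal it passed at 2 and 4 h but not at the other times.

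Of the ADP-glucose pyrophosphorylase genes, STA1 was lower at 8 h and STA6 passed at no time in the fit over both strains. STA1 peaked at 331 FPKM at 0.5 h in CC-4349, from 99.5 FPKM at 0 h, and was lowest at 32.3 FPKM at 8 h, a 10.2-fold range. In sta6 it peaked at 295 FPKM at 2 h, from 157 FPKM, and was lowest at 71.3 FPKM at 48 h. The early rise did not pass, with a log2 difference of 1.04 ± 0.401 at 0.5 h (SE; limma, adjusted p = 0.0878). At 8 h it was lower by -1.28 ± 0.401 (SE; limma, adjusted p = 0.0236). This call was lost in 4 of 24 alternatives, which were quantile normalization and leaving out the CC-4349 sample of 0 or 8 h or the sta6 sample of 0 h. STA6 itself stood at 199, 503, 390, 218, 124, 147, 156 and 136 FPKM in CC-4349, with its peak at 0.5 h like STA1. In sta6 it lay between 0.478 and 1.20 FPKM at all 8 times. Because the fit spans both strains, its time differences are averages with a strain that has almost no transcript, and none passed. The ratio of STA6 to STA1 in first-set CC-4349 lay between 1.52 at 0.5 h and 3.84 at 8 h.

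STA11, the D-enzyme gene, changed least. Its CC-4349 levels ranged from 30.9 to 50.4 FPKM and its sta6 levels from 31.7 to 77.97 FPKM, with the sta6 peak at 2 h. No time passed on the deposited scale, but it was lower at 8, 12 and 48 h with library medians made equal. The 95% interval of the log2 difference at 2 h ran from -0.23 to 1.14 (limma, adjusted p = 0.232).

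Over all times, 28 of the 63 pairs of gene and time were higher and 2 lower. At 0.5 h, 3 genes were higher (STA2, SSS1 and Cre10.g444700), where 14.8% of all genes were higher and 6.12% lower. Each of these 3 calls was lost without the CC-4349 sample of 0.5 h or the sta6 sample of 0 h. At 4 h the 3 synthase and 3 branching enzyme genes were again higher, against 37.0% of all genes higher and 11.8% lower. At 8 h, 4 were higher and STA1 was lower, against 37.5% and 9.92%. SSS1, Cre06.g289850 and Cre10.g444700 were the 3 higher genes at 12, 24 and 48 h, against 38.5%, 37.8% and 37.9% of all genes higher and 10.6%, 11.6% and 11.8% lower. From 8 h on, the share of starch genes called higher was within 1 gene of the share of all genes. The median of the starch genes went from 1.04 at 0.5 h through 1.67 at 2 h to 0.09 at 48 h, while that of all genes was 0.24 at 0.5 h and between 0.51 and 0.53 afterwards. With library medians made equal, 19 pairs were higher and 8 lower, and without the sta6 sample of 0 h 19 were higher. Equal medians split all genes at 2 h into 3079 higher and 3297 lower in place of 6017 and 2223. The 6 genes called at 2 h passed in each of the 24 alternatives run.

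In CC-4349, 3 of the 9 genes were highest at 0.5 h, 4 at 2 h, 1 at 4 h and 1 at 48 h. In sta6, 6 of the 8 genes other than STA6 were highest at 2 h. Among genes of at least 10 FPKM on average, 20.2% of 7158 peaked at 2 h in CC-4349 and 23.3% of 6282 in sta6.

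The second set measured the same course in 5 strains, from 0.5 h. Most starch genes were lower at 48 h than at 0.5 h, when several first-set genes had already risen. At 48 h, 6 of the 9 genes were lower and 2 higher, where 32.2% of all 14982 genes were lower and 29.3% higher (limma, adjusted p below 0.05). The members' median log2 difference was -1.15 and that of all genes -0.02. At 4 h, STA1, STA3, Cre06.g270100 and Cre10.g444700 were lower and Cre06.g289850 was higher, which is 4 lower and 1 higher against 9.73% and 12.7%. The STA3 call at 4 h, a difference of -0.46 (limma, adjusted p = 0.0471), was lost in 13 of 22 alternatives.

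STA2 fell most. For CC-4349, sta6, STA6-C2, STA6-C4 and STA6-C6 in turn, its 0.5 h values were 451, 793, 544, 681 and 563 FPKM. At 48 h they were 21.5, 100.03, 67.5, 52.8 and 73.2 FPKM. The groups of times did not overlap. The log2 difference was -3.38 ± 0.258 (SE; limma, adjusted p = 1.40e-06).

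STA3 spanned 81.2 to 172 FPKM at 0.5 h and 36.5 to 61.2 FPKM at 48 h, with a log2 difference of -1.54 ± 0.150 (SE; limma, adjusted p = 7.07e-06). STA1 spanned 219 to 370 FPKM at 0.5 h, 77.1 to 154 FPKM at 4 h and 64.5 to 121 FPKM at 48 h. Both genes were lower at 48 h in all 5 strains. The STA1 difference was -1.63 ± 0.223 at 4 h (SE; limma, adjusted p = 0.000559) and -1.71 ± 0.223 at 48 h (SE; limma, adjusted p = 5.36e-05).

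Among the branching enzyme genes, Cre06.g270100 spanned 30.5 to 44.6 FPKM at 0.5 h and 11.3 to 15.5 FPKM at 48 h, a log2 difference of -1.58 ± 0.138 (SE; limma, adjusted p = 3.38e-06). Cre10.g444700 spanned 240.1 to 352 FPKM and then 169 to 238 FPKM, a difference of -0.62 ± 0.122 (SE; limma, adjusted p = 0.000932) that was lost under quantile normalization. Cre06.g289850 went the other way in all 5 strains. It spanned 10.3 to 12.1 FPKM at 0.5 h, 20.2 to 24.8 FPKM at 4 h and 20.6 to 24.99 FPKM at 48 h. The difference was 0.97 ± 0.1002 at 4 h (SE; limma, adjusted p = 0.000132) and 1.03 ± 0.1002 at 48 h (SE; limma, adjusted p = 6.95e-06), with no overlap between 0.5 h and either later time.

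SSS1 rose by 0.60 ± 0.173 at 48 h (SE; limma, adjusted p = 0.00975). For CC-4349, STA6-C2, STA6-C4 and STA6-C6 in turn its 0.5 h values were 30.9, 70.9, 69.3 and 59.1 FPKM and its 48 h values 57.8, 117, 103 and 120 FPKM. In sta6 they were 119 and 107 FPKM, so it was higher at 48 h in 4 of 5 strains. STA11 did not pass at 48 h, with a difference of -0.26 and a 95% interval from -0.58 to 0.07 (limma, adjusted p = 0.153). STA6 fell by 1.15 ± 0.274 over the 5 strains (SE; limma, adjusted p = 0.00330), with a difference of -1.51 without the sta6 libraries, a fit chosen after seeing that the gene is near 0 there (limma, adjusted p = 5.40e-05).

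**Figure D3:**
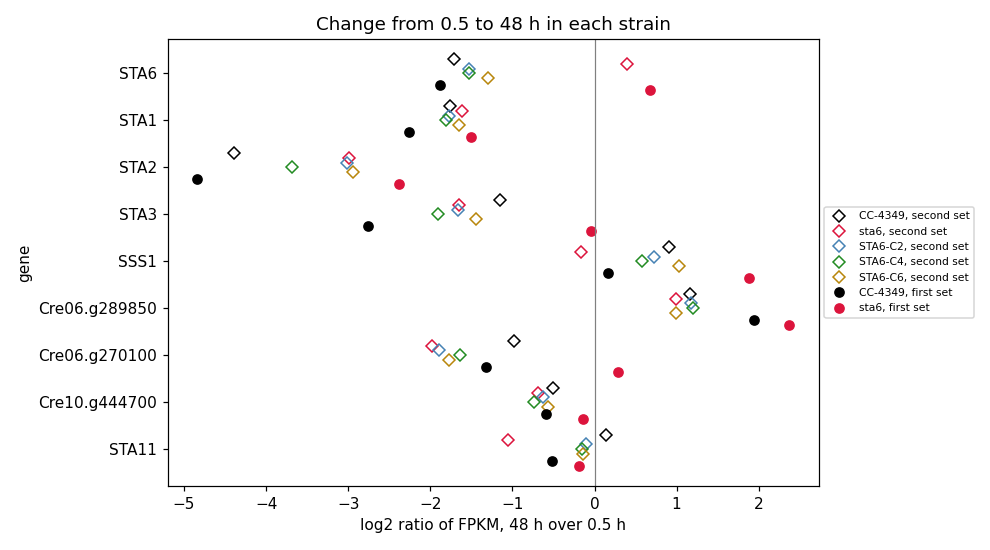
Log2 ratio of FPKM at 48 h over 0.5 h in each strain for each starch gene, 1 sample per strain, set and time, with diamonds for the second set and filled circles for the first. STA2 lies farthest to the left in the second set, between 0.0478 and 0.130 times its 0.5 h level, and Cre06.g289850 lies between 1.98 and 2.29 times in all 5 strains.

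The next question was how the mutant and the rescued strains differed in these genes. STA6 was the gene that separated them. In the second set it stood at 1.94, 1.09 and 2.55 FPKM in sta6 at 0.5, 4 and 48 h. STA6-C2 gave 845, 466 and 293 FPKM, STA6-C4 312, 259 and 108 FPKM, and STA6-C6 339, 234 and 138 FPKM. CC-4349 gave 320, 276 and 98.2 FPKM, close to STA6-C4 and STA6-C6 and below STA6-C2. The difference of sta6 from the rescued strains was -6.66 ± 0.404 (SE; limma, adjusted p = 1.07e-06). Rescued strains and CC-4349 did not differ detectably in STA6, with a log2 difference of 0.45 and a 95% interval from -0.42 to 1.32 (limma, adjusted p = 0.418). The ratio of STA6 to STA1 was 2.61, 6.05 and 3.09 in STA6-C2, whereas STA6-C4 had 0.904, 2.38 and 1.10 and STA6-C6 had 1.06, 2.54 and 1.36.

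Between sta6 and the rescued strains, STA6 was the 1 gene of 9 that was lower and no starch gene was higher, where 0.387% of all genes were lower and 0.354% higher (limma, adjusted p below 0.05). STA6 is the gene that the strain labels name, so its call was set by the choice of strains. No other starch gene passed. At an unadjusted p below 0.05, where the share of all genes was not counted, 2 starch genes were higher in limma. These were SSS1, with a difference of 0.46 and a 95% interval from 0.10 to 0.82 (limma, adjusted p = 0.259), and STA11, with 0.41 and an interval from 0.10 to 0.72 (limma, adjusted p = 0.237). Both passed when the 48 h sample of sta6 was left out and with strain as a random block (limma, adjusted p = 0.0246 for SSS1 and 0.0209 for STA11). The block had a negative estimated correlation, -0.23, so that fit is not a stricter test of strain differences. Many more of all genes passed with it too. SSS1 in sta6 was above the rescued range at 0.5 h (119 FPKM against 59.1 to 70.9) and at 4 h (85.8 against 44.0 to 63.0) and inside it at 48 h (107 against 103 to 120). STA11 in sta6 stood at 74.1 FPKM at 0.5 h against 37.1 to 39.5 in the rescued strains, and at 55.6 FPKM at 4 h against 44.0 to 48.4. At 48 h it was 35.8 FPKM, inside the rescued range.

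For the other genes the 95% intervals of the difference between sta6 and the rescued strains bound what these samples allow. They ran from -0.38 to 0.57 for STA1, from -0.21 to 0.88 for STA2 and from -0.25 to 0.42 for STA3. For the branching enzyme genes they ran from -0.25 to 0.16 for Cre06.g289850, from -0.33 to 0.24 for Cre06.g270100 and from -0.38 to 0.14 for Cre10.g444700. The branching enzyme genes thus had narrower intervals than STA1, STA2 and STA3.

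Against CC-4349, both sta6 and the rescued strains had more SSS1, STA3 and STA11 transcript. In sta6, 4 genes were higher and STA6 was lower, where 11.1% of all genes were higher and 15.6% lower. None of the 4 passed when the rescued libraries were left out of the fit. In the rescued strains 3 genes were higher and 0 lower, against 16.1% and 16.3%. No starch gene was lower there in limma at an unadjusted p below 0.05 either, with no share of all genes counted. These comparisons use the same 3 CC-4349 libraries. SSS1 in CC-4349 stood at 30.9, 35.5 and 57.8 FPKM, below every sta6 and rescued sample of the same time. Its difference was 1.35 ± 0.205 in sta6 (SE; limma, adjusted p = 0.000315) and 0.89 ± 0.167 in the rescued strains (SE; limma, adjusted p = 0.00127). STA11 in CC-4349 stood at 27.2, 30.3 and 29.9 FPKM, again the lowest at each time. Its difference was 0.84 ± 0.176 in sta6 (SE; limma, adjusted p = 0.00327) and 0.43 ± 0.144 in the rescued strains (SE; limma, adjusted p = 0.0353), the latter lost in 12 of 29 alternatives.

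STA3 and STA2 rested on fewer times. STA3 in CC-4349 stood at 81.2 FPKM at 0.5 h against 149 to 172 in the other 4 strains, but at 91.4 FPKM against 89.8 to 120 at 4 h. Its difference was 0.59 ± 0.191 in sta6 (SE; limma, adjusted p = 0.0345) and 0.51 ± 0.156 in the rescued strains (SE; limma, adjusted p = 0.0226), and both calls were lost without the 0.5 h libraries. STA2 differed by 0.95 ± 0.310 in sta6 (SE; limma, adjusted p = 0.0364), lost in 10 of 29 alternatives, and by 0.62 ± 0.253 in the rescued strains (SE; limma, adjusted p = 0.0781). At 48 h STA2 was 21.5 FPKM in CC-4349, 100.03 in sta6 and 52.8 to 73.2 in the rescued strains. In the rescued strains STA2 passed without the 4 h sample of CC-4349 and with strain as a random block (limma, adjusted p = 0.0130 and 0.00853). STA1 and the branching enzyme genes passed in neither comparison as fitted. Without the 4 h sample of CC-4349, STA1 passed as higher in sta6 (limma, adjusted p = 0.0101) and in the rescued strains (limma, adjusted p = 0.00813). Cre10.g444700 passed as higher in the rescued strains without that sample (limma, adjusted p = 0.0199) and with the random block (limma, adjusted p = 0.0413). Here too the block, with its negative correlation, is not a stricter test of strain differences.

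**Figure D4:**
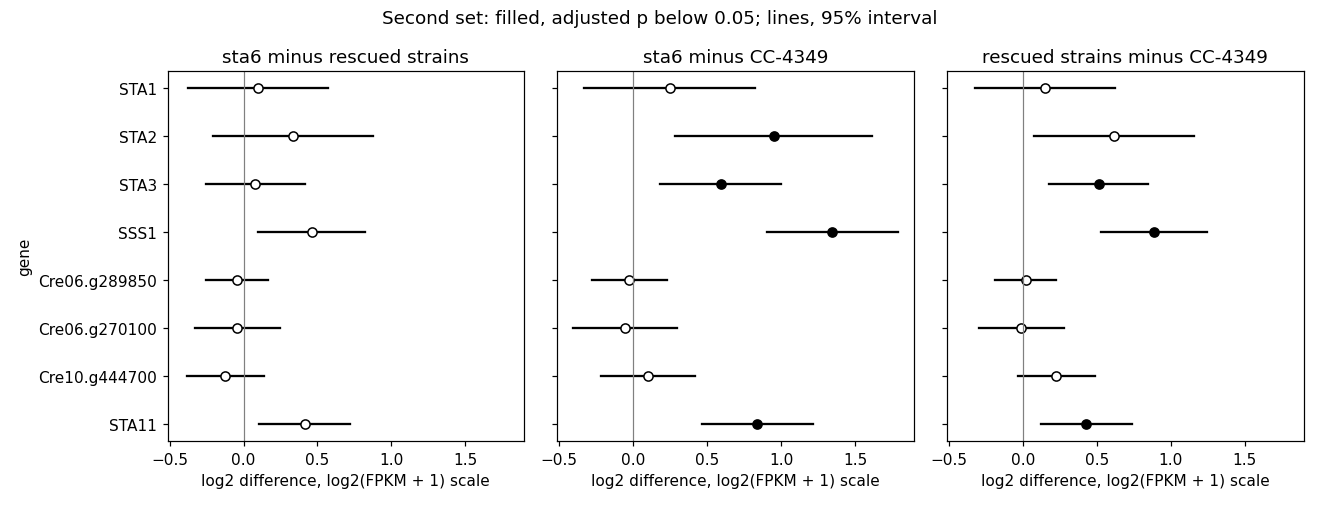
Log2 difference of the 8 starch genes other than STA6 between strain classes in the second set on the log2(FPKM + 1) scale, with 95% intervals from limma over 15 libraries and filled points where its adjusted p was below 0.05. Only open points appear for sta6 minus rescued strains, while SSS1 is filled in both comparisons with CC-4349 (1.35 and 0.89).

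The first set gave another picture of sta6 against CC-4349. STA6 was lower by -6.86 ± 0.227 (SE; limma, adjusted p = 1.78e-08), Cre06.g289850 was lower and STA1 higher, so 1 of 9 genes was higher and 2 lower, against 9.22% and 33.0% of all genes. The median of all genes was -0.25. Cre06.g289850 was lower in sta6 at 8 of 8 times, by -0.48 ± 0.103 (SE; limma, adjusted p = 0.00442), a size inside the range of the worth of 1 read above. This call was lost with library medians made equal, and the second-set difference was -0.03 (limma, adjusted p = 0.892). STA1 was higher in sta6 at 7 of 8 times, by 0.59 ± 0.2004 (SE; limma, adjusted p = 0.0358), and this call was lost in 15 of 25 alternatives. The STA1 difference had the other sign from most of the range of the worth of 1 read, which was not measured for STA1 itself. Whether quantification bears on it was not tested. SSS1, which was higher in sta6 in the second set, had a difference of -0.47 in the first, with a 95% interval from -0.97 to 0.03 (limma, adjusted p = 0.114). This too was a size inside the range of the worth of 1 read. First-set CC-4349 held 3.89, 3.07 and 2.34 times the SSS1 level of second-set CC-4349 at 0.5, 4 and 48 h, whereas sta6 held 0.266, 1.40 and 1.10 times. For the worth of 1 read, 95% of the log2 ratios of first-set CC-4349 to the second set lay between -0.07 and 0.86.

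The 0.5 h samples stood out between the sets. At 0.5 h in the first set, sta6 was higher than CC-4349 in 0 of the 8 genes other than STA6, with a median log2 ratio of -1.09. In the second set it was higher in 7 of 8, with a median of 0.79. No share or median of all genes was taken at 0.5 h alone, so whether whole libraries shifted likewise was not tested. Over all times, the fitted median of all genes for sta6 against CC-4349 was -0.25 with first-set libraries. With second-set libraries it was 0.01. STA3 at 0.5 h was 55.0 FPKM in sta6 and 261 in CC-4349 in the first set, and 172 and 81.2 in the second. At 48 h the sets lay closer, with STA3 at 53.5 and 38.7 FPKM in the first and 55.0 and 36.5 in the second. Whether sampling or culture differed at 0.5 h was not tested. Without the first-set sta6 sample of 0.5 h, 37 in place of 28 pairs of gene and time were higher than at 0 h.

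Whether the late change differed between the strains was tested in the first set by an interaction of strain with phase, the late phase (8 to 48 h) against the earliest (0 and 0.5 h). No starch gene passed, where 0.304% of all genes were higher and 0.397% lower. Times within a phase served as replicates, so the spread includes change within a phase. In CC-4349 the earliest phase had an SD of 1.63 for STA3 and 1.33 for SSS1, against 0.02 for Cre06.g289850 (log2 scale, n = 2). The lack of calls therefore does not show that late changes were equal. At an unadjusted p below 0.05, where the share of all genes was again not counted, 3 of 9 were higher and 0 lower in limma. STA3 had an estimate of 1.92 ± 0.770 (SE; limma, adjusted p = 0.324) and SSS1 one of 1.47 ± 0.582 (SE; limma, adjusted p = 0.316). The third was STA6. Its earliest and late means on the log2(FPKM + 1) scale were 0.70 and 0.86 in sta6, near the floor, and 8.31 and 7.14 in CC-4349. The STA6 estimate is thus largely the fall in CC-4349. Without the CC-4349 sample of 0 h, the earliest phase of CC-4349 was its 0.5 h sample alone, while sta6 kept both times. The estimate was then 3.07 for STA3 and 2.41 for SSS1, the highest of 25 alternatives. The lowest was 0.76 for STA3 and 0.53 for SSS1.

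A second list held loci linked to starch by general knowledge. Of its 9 loci, 7 were in the table, and they are given by ID because the reference used here gives them no name. At 2 h, 5 of the 7 passed as higher and 1 as lower, where 39.8% of all genes were higher and 14.7% lower. At 48 h, 4 passed as higher and 0 as lower, against 37.9% and 11.8%. Cre07.g336950 stood at 99.5, 533 and 666 FPKM at 0, 2 and 48 h in CC-4349. In sta6 it stood at 131, 574 and 671 FPKM. Its log2 difference was 2.27 ± 0.331 at 2 h (SE; limma, adjusted p = 0.000647). Cre03.g185250 was at 120 FPKM at 0 h and 27.9 FPKM at 2 h in CC-4349, and at 117 and 0.934 FPKM in sta6, a difference of -4.00 ± 1.00 (SE; limma, adjusted p = 0.00785). Cre16.g683450 was at 9.48 and then 21.5 FPKM in CC-4349 and at 10.9 and then 22.7 FPKM in sta6, a difference of 1.05 ± 0.187 (SE; limma, adjusted p = 0.00154). In the second set 4 of the 7 were higher and 0 lower in sta6 than in CC-4349, against 11.1% and 15.6% of all genes. Between sta6 and the rescued strains 0 of 7 passed, against 0.354% of all genes higher and 0.387% lower. With an unadjusted p below 0.05, and no share of all genes counted, limma gave 1 as higher (Cre16.g683450).

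Across the 31 samples, after centring within strain and set, the profile most like that of STA1 among 6498 genes of at least 10 FPKM on average was Cre12.g510650, with Pearson's r of 0.96. It was followed by Cre13.g598750 and Cre12.g554800, both with r of 0.93. For the mean of the 8 starch genes other than STA6 they were Cre16.g676450, Cre03.g209550 and Cre06.g293700, with r between 0.93 and 0.94. Cre16.g676450 stood at 10.2, 66.1 and 20.6 FPKM at 0, 2 and 48 h in CC-4349, and its sta6 values were 14.7, 68.4 and 21.7 FPKM. Among the starch genes, the r with this mean was 0.97 for STA3 and 0.92 for Cre06.g270100, but 0.36 for SSS1 and 0.05 for Cre06.g289850. These are descriptions over samples that share strains and times, and each starch gene is part of the mean.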

How the data were processed

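RNA was measured in 31 samples of 5 strains. The authors deposited 1 table of 47 columns whose values were taken as FPKM; the header leaves the unit unnamed, so RPKM is equally possible. Per the submitters' processing notes Bowtie was used, while its version, the build, the annotation and the counting step are not given in the labels. The paired columns of a first-set sample were averaged, and the labels do not say whether they came from separate cultures. A p-value here therefore reflects only how these samples scatter, which may be technical. In the first-set fit of time, each time is replicated only over CC-4349 and sta6. The spread there is how far the courses of these strains disagree.

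The starch genes and the lists were chosen with earlier results of these data known. All 9 were named in every comparison. Tests used log2(FPKM + 1), which understates changes of low genes, in limma 3.58.1 (R 4.3.3, trend and robust) on genes reaching 1 FPKM in 3 or more of the libraries fitted, with p-values adjusted by Benjamini-Hochberg over all genes at a threshold of 0.05. Each time was compared with 0 h in the 16 first-set libraries with strain and time (7 residual degrees of freedom), and with 0.5 h in the 15 second-set libraries (8). Strain classes used time and class (10), where libraries of 1 strain at different times stand as replicates; the interaction used strain and phase (10). The second-set class fit rests on 1 library per time in sta6 and CC-4349. Similar genes were ranked by Pearson's r. Alternatives were other scalings, pseudocounts of 0.1 and 5, no filter, no trend or robust fitting, single columns, other sets of libraries and leaving out each library. The fits were tried on simulated data with planted changes and independent noise. That noise held none of the strain, column or scaling differences seen here, so the trial does not bear on them. Python 3.11.15, numpy 2.4.6, pandas 2.3.3, scipy 1.17.1 and matplotlib 3.10.9 were used. No sequences are shown.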

Additional observations from a re-analysis of the deposited data

How the results depend on the processing

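Of 55 called values of a starch gene in a comparison, 32 passed in every alternative run, and of 71 values not called, 30 passed in at least 1. No called value changed sign. Of the 63 pairs of gene and time, the number lower than at 0 h was 2. It became 0 under quantile normalization and 8 with equal medians, and ranged from 0 to 4 when 1 library was left out. In first-set sta6 against CC-4349, 1 higher gene became 0 under quantile normalization or from the second deposited column alone, and 2 with equal medians or from the first column alone, with a leave-one-out range of 0 to 2; the 2 lower genes became 1 with equal medians. In second-set sta6 against CC-4349, 4 higher genes became 2 without the 0.5 h libraries and without STA6-C2, STA6-C4 or STA6-C6, and 0 when only both classes were fitted, with a leave-one-out range of 2 to 5. In rescued strains against CC-4349, 3 higher genes became 1 without the 0.5 h libraries or without STA6-C6 and 5 with strain as a random block, with a leave-one-out range of 1 to 5. In sta6 against rescued strains, 0 higher genes became 2 without the 48 h libraries and with strain as a random block, with a leave-one-out range of 0 to 2; the estimated block correlation was -0.23. The interaction stayed at 0 genes under quantile normalization and with equal medians. Leaving out the CC-4349 sample of 0 h left its 0.5 h sample alone in the earliest phase, so no count is given for that fit. The causes were not tested.

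Among all genes, first-set calls turned on scaling. At 2 h, 6017 higher and 2223 lower genes became 3375 and 2966 under quantile normalization, and in sta6 against CC-4349 1393 and 4987 became 2160 and 2440. In the second set, sta6 against CC-4349 went from 1669 higher and 2343 lower to 2652 and 2092 with equal medians, and sta6 against rescued strains from 53 and 58 to 83 and 38, to 463 and 882 with the random block, and to 421 and 371 without the 48 h libraries. Depth per sample is unknown, so no counting interval can be given. Samples of the same time were compared within that time, since time was a factor in the fits of strain; the labels give no replicate numbers, so no other pairing was made.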

Other observations

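The starch genes sat high in the transcriptome. Cre10.g444700 lay between the 93.9th and 98.9th percentile of all genes in every library, and STA1 between the 85.0th and 98.5th. STA2 ran from the 80.5th to the 99.3rd percentile and SSS1 from the 72.5th to the 97.1st. Cre06.g289850 ran from the 49.9th to the 86.9th percentile, the lowest of the 8 genes other than STA6.

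The summed FPKM of the 3 synthase genes ranged from 116 to 1470 over the 31 libraries and that of the 3 branching enzyme genes from 102 to 605. In first-set CC-4349 the synthase sum was 230 FPKM at 0 h, 1246.5 at 2 h and 197 at 48 h. The branching enzyme sum was 144, 605 and 325 FPKM at the same times. In first-set sta6 the synthase sum was 168, 1470 and 260 FPKM and the branching enzyme sum 102, 536 and 199 FPKM. At 48 h the branching enzyme sum was above its 0 h level in both strains, and the synthase sum was above it in sta6 and below it in CC-4349.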
